A study of Homo sapiens with 8 samples.

Results

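The AP-1 and immediate early regulators are 10 genes chosen by name: the JUN family (JUN, JUNB and JUND), the FOS family (FOS, FOSB, FOSL1 and FOSL2), and EGR1, IER2 and DUSP1. All 10 were found among the 19305 transcripts counted in every library, each as 1 RefSeq accession, and all 10 were among the 14565 genes that passed the low-count filter and were tested. The list was drawn up because JUN differed in opposite directions in the knockdown experiments of the series. The values of JUN in those experiments are therefore given as a description without a test. For the other 9 members the adjusted p-values of the knockdown comparisons describe these libraries and are not used as support for the list.

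Polyadenylated RNA was sequenced from 8 libraries of human cell lines, 2 in each of 4 groups. The H9 libraries are from human embryonic stem cells with an shRNA against eIF2A or with a control shRNA. HEK293T, a transformed line from embryonic kidney, carried an siRNA against eIF2A or a control siRNA, and all its libraries, controls included, came from cells treated with sodium arsenite, an oxidative stressor whose dose and time the labels do not give. The eIF2A protein is a translation initiation factor able to deliver the initiator tRNA, and the series asks how protein synthesis resists stress and how it serves stem cells. No HEK293T library without arsenite and no H9 library with arsenite is among the 8. The labels number the libraries of a group as sets and do not say whether these are separate cultures. The p-values thus cover only the spread between these samples, and that spread may be technical. In bulk libraries such as these, fewer cells of a type and less RNA per cell cannot be told apart.

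AP-1 is a transcription factor made of pairs of basic leucine zipper proteins. JUN proteins can pair with each other or with FOS proteins, whereas FOS proteins bind DNA well only with a partner from the JUN family. Many genes of both families, together with EGR1, IER2 and DUSP1, are immediate early genes: their transcripts are short-lived and are induced within minutes by growth factors or stress through MAP kinases, without new protein synthesis. Arsenite is a classical inducer of JUN and FOS, through the stress-activated kinases JNK and p38.

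Gene counts per library ranged from 21837052 to 32318668. EIF2A, the targeted transcript, stood at 5.03 and 4.67 CPM (this unit is a gene's count relative to all gene counts of its library, scaled between libraries with TMM factors) with shRNA against 15.8 and 14.8 CPM in the controls of H9, and at 5.58 and 5.98 CPM with siRNA against 17.5 and 18.3 CPM in the controls of HEK293T. The 11 pluripotency markers found summed to 5550 and 5640 CPM with shRNA and 5930 and 5950 CPM in the controls of H9. By the test described below, 4 of them were called higher and 5 lower there, where 71.3% of all genes were called. L1TD1 stood at 148 and 142 CPM with shRNA and 73.7 and 70.6 CPM in the controls. POU5F1 stood at 141 and 114 CPM with shRNA and 162 and 195 CPM in the controls. LIN28A and DPPA4 stood at 2710 to 2980 CPM and 454 to 517 CPM in H9. In HEK293T the sums were 141 and 143 CPM with siRNA and 153 and 157 CPM in the controls, mostly DNMT3B at 129 to 145 CPM. There LIN28A was at 0.157 CPM or less and NANOG, L1TD1 and DPPA4 had no counts in any library. The replicates of the HEK293T controls differed more from each other than those of the other groups, with a chi-square per degree of freedom of 4.91 against 1.35 to 1.80, where 1 is sampling noise.

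The members followed JUN in different ways. JUN itself is left out of the counts for the knockdown comparisons. A gene was called where its adjusted p-value was under 0.05 in edgeR's quasi-likelihood test, adjusted over all genes by the Benjamini-Hochberg method. A further fit removed from each library the trend of counts on the GC content and length of transcripts. With eIF2A shRNA in H9, 2 of the 9 other members were called higher (JUND and FOSL1) and 5 lower (JUNB, FOS, EGR1, IER2 and DUSP1), where 71.3% of all genes tested were called, 37.0% higher and 34.3% lower. The knockdown and control libraries of H9 did not overlap for any of the 9, as for 84.9% of all genes, and none of the 9 was called with a change of at least 2-fold, against 16.8% of all genes. With eIF2A siRNA in HEK293T, none of the 9 was called higher and 5 were called lower (JUND, FOS, FOSB, EGR1 and IER2), where 28.7% of all genes were called, 14.1% higher and 14.7% lower. The libraries of HEK293T did not overlap for 7 of the 9, as for 58.8% of all genes, and none was called with a 2-fold change, against 0.673% of all genes. The median log2 fold change of the 9 was -0.40 in H9, against 0.02 over all genes, and -0.19 in HEK293T, against 0.00 over all genes. With the trend removed it was -0.12 in H9, against -0.03 over all genes, and -0.15 in HEK293T, against 0.00. JUND was called in the direction of JUN in both lines, and 3.19% of all genes tested were called lower in HEK293T and higher in H9. Its call in H9 depended on the scaling and on single libraries. FOSL1 was called with JUN in H9 and not in HEK293T (28.6% of all genes), and FOSB in HEK293T and not in H9 (2.72%). JUNB and DUSP1 were called lower in H9 and not in HEK293T (19.7%), and FOSL2 was called in neither line (23.0%). FOS, EGR1 and IER2 were called lower in both lines, as were 8.74% of all genes, so they followed JUN in HEK293T and went against it in H9. With the trend removed, the H9 calls of JUNB, FOS and DUSP1 were lost, and that of FOS also depended on single libraries.

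**Figure D1:**
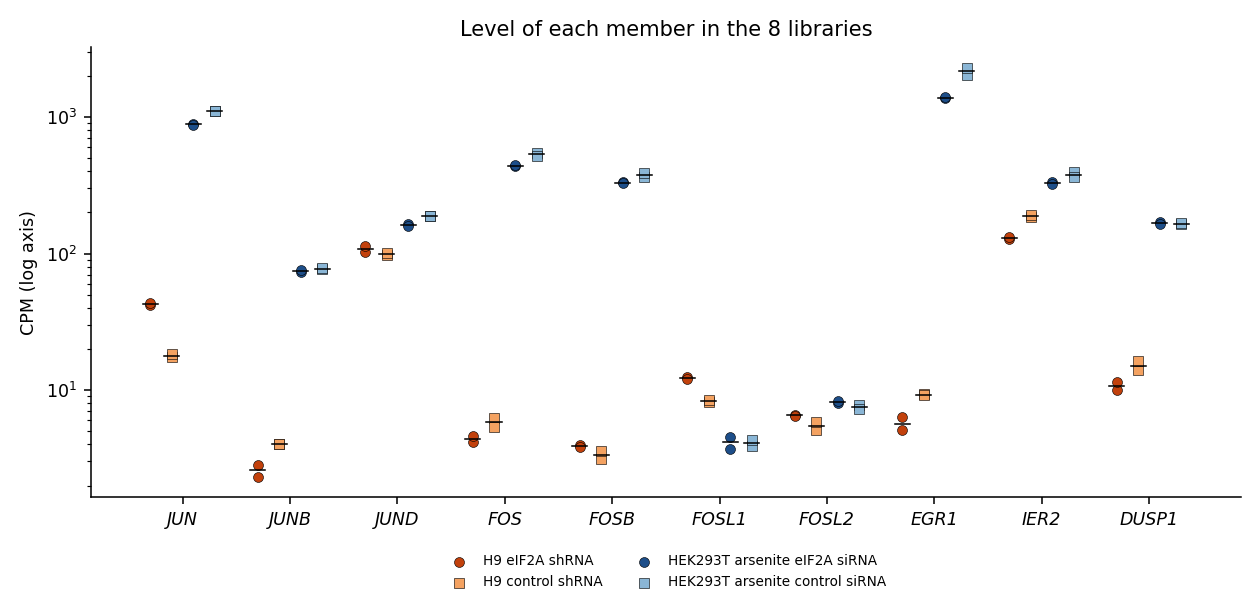
CPM of each member on a log axis in the 8 libraries. Each point is a library, the short line is the mean of the group, and circles are eIF2A knockdown and squares controls. JUN lies higher with eIF2A knockdown in H9 and lower in HEK293T, and most members lie far lower in H9 than in arsenite-treated HEK293T.

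JUN, the partner common to most AP-1 pairs, stood at 41.7 and 43.4 CPM with eIF2A shRNA and at 17.4 and 18.2 CPM in the controls of H9. Both knockdown libraries lay above both controls, at 2.39 times their level (log2 fold change 1.25 ± 0.055, SE). In HEK293T it stood at 887.6 and 880.0 CPM with eIF2A siRNA and at 1096 and 1113 CPM in the controls. Both knockdown libraries lay below both controls, a level 1.25-fold lower (log2 fold change -0.32 ± 0.030). The difference of the changes, H9 minus HEK293T, was 1.58 ± 0.063 on the log2 scale. These are the values that chose the list.

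The promoters of 3 members are shown because these genes part ways in the data: JUN, JUND, the member called in the direction of JUN in both lines, and EGR1, which was lower with knockdown in both. Each sequence is the 250 bases before the RefSeq start on build GRCh38.p14, written along the gene's strand. The counts were made on hg19, so the positions serve only to place the sequences. The JUN sequence is chr1:58784048-58784297 on the minus strand, that of JUND is chr19:18281623-18281872 on the minus strand, and that of EGR1 is chr5:138465229-138465478 on the plus strand. Capitals mark matches on either strand to the AP-1 site TGACTCA, to its longer relatives TGACATCA and TGACGTCA, or to the CArG box, the core bound by serum response factor. No marked matches overlap.
JUN: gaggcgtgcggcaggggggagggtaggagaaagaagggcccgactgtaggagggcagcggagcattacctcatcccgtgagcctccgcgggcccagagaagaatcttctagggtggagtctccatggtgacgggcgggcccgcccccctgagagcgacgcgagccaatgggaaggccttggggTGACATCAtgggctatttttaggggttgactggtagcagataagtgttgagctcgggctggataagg
JUND: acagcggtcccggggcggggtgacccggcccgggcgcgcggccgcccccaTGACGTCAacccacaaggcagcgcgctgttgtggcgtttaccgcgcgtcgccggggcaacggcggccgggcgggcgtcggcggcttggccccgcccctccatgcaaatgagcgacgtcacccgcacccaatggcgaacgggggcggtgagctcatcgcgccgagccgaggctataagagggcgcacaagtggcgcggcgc
EGR1: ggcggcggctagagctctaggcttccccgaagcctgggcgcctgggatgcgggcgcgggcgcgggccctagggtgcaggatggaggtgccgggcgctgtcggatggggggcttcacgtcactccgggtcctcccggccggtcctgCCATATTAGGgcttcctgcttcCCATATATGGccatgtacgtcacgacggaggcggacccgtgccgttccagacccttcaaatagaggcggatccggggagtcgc
The JUN promoter holds 1 match to TGACATCA, a variant site that JUN proteins are known to bind in their own gene, and 2.37% of the 35116 promoters of that table hold at least 1. JUND holds 1 match to TGACGTCA, the cyclic AMP response element, as does DUSP1, against 1.65% of promoters. EGR1 holds 2 CArG boxes, and 1.16% of promoters hold at least 1. FOS and IER2, the other members called lower in both lines, hold no CArG box in this window. None of the 9 members with an entry in the table holds TGACTCA in this window, against 4.20% of promoters. FOSL1 has no entry.

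JUND, the JUN family member with the steadiest known expression, stood at 102.9 and 113.9 CPM with eIF2A shRNA and at 97.9 and 101.7 CPM in the controls of H9. The groups did not overlap, but the knockdown libraries lay further apart from each other than the gap between the groups (log2 fold change 0.12 ± 0.044, adjusted p = 0.016). This call was lost without H9 control shRNA replicate 1 (0.09, adjusted p = 0.16) and without H9 eIF2A shRNA replicate 2 (0.05, adjusted p = 0.43), and with DESeq2's size factors the value was -0.04 (adjusted p = 0.41). In HEK293T it stood at 164.2 and 159.3 CPM with siRNA and at 189.0 and 188.4 CPM in the controls, without overlap, and fell by 0.22 ± 0.039 on the log2 scale (adjusted p = 2.8e-05).

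JUNB, a family member that can oppose JUN at some promoters, did not follow JUN. It stood at 2.32 and 2.84 CPM with shRNA and at 4.01 and 4.0 CPM in the controls of H9, where it fell by 0.64 ± 0.16 on the log2 scale (adjusted p = 7.8e-04). After removal of the trend the value was -0.19 and the call was lost (adjusted p = 0.35). These levels rest on 60 and 67 counts with shRNA and on 86 and 81 counts in the controls. HEK293T had JUNB at 72.6 and 76.3 CPM with siRNA and at 76.8 and 77.8 CPM in the controls, a gap smaller than the spread between the siRNA libraries (log2 fold change -0.05, 95% interval -0.15 to 0.04, adjusted p = 0.42). Exons of JUNB overlap exons of HOOK2 on the opposite strand in the GENCODE annotation, and HOOK2 stood at 41.5 and 42.9 CPM with shRNA and at 48.1 and 54.3 CPM in the controls of H9. Whether the count used strand is not given, and the part of HOOK2 in the JUNB value was not tested.

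Among the FOS family, FOS and FOSB were lower with eIF2A siRNA in HEK293T as JUN was. FOS stood at 435.9 and 442.0 CPM with siRNA and at 543.9 and 521.2 CPM in the controls, and fell by 0.28 ± 0.032 on the log2 scale (adjusted p = 3.3e-08). FOSB, a close relative induced with FOS, stood at 331.3 and 327.0 CPM with siRNA and at 360.9 and 388.5 CPM in the controls, and fell by 0.19 ± 0.034 (adjusted p = 5.5e-05). Neither gene's groups overlapped.

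In H9 these genes did not go together. FOS stood at 4.17 and 4.62 CPM with shRNA and at 6.25 and 5.33 CPM in the controls, and fell by 0.40 ± 0.12 on the log2 scale (adjusted p = 0.0045). With 108 and 109 counts against 134 and 108, its call was lost without H9 control shRNA replicate 1 (-0.28, adjusted p = 0.14) or without H9 eIF2A shRNA replicate 1 (-0.33, adjusted p = 0.066). FOSB stood at 3.94 and 3.82 CPM with shRNA and at 3.12 and 3.60 CPM in the controls, higher in both knockdown libraries but not called (log2 fold change 0.21, 95% interval -0.09 to 0.51, adjusted p = 0.23).

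FOSL1, a FOS relative without the strong activation domain of FOS, was the member with the largest rise in H9 after JUN. It stood at 12.4 and 12.1 CPM with shRNA and at 8.11 and 8.49 CPM in the controls, without overlap, and rose by 0.56 ± 0.11 on the log2 scale (adjusted p = 2e-05). In HEK293T it stood at 4.56 and 3.73 CPM with siRNA and at 3.88 and 4.34 CPM in the controls. These groups overlapped (log2 fold change 0.00, 95% interval -0.29 to 0.29, adjusted p = 1). FOSL2, a relative of FOSL1, stood at 6.61 and 6.49 CPM with shRNA and at 5.08 and 5.83 CPM in the controls of H9 (log2 fold change 0.27, 95% interval 0.00 to 0.53, adjusted p = 0.068). In HEK293T it stood at 8.02 and 8.36 CPM with siRNA and at 7.84 and 7.29 CPM in the controls (0.12, 95% interval -0.10 to 0.34, adjusted p = 0.44). Both knockdown libraries lay above both controls in each line, without a call in either.

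EGR1, a zinc finger transcription factor induced through serum response factor, had the largest fall of the members in both lines. In HEK293T it was the member with the highest level, at 1384 and 1390.1 CPM with siRNA and 2025 and 2289 CPM in the controls. It fell to 64.3% of the control level (log2 fold change -0.64 ± 0.045, adjusted p = 2.5e-08), a gap larger than that between the controls. In H9 it stood at 5.06 and 6.32 CPM with shRNA and at 9.33 and 9.23 CPM in the controls, which is 61.1% of the control level (log2 fold change -0.71 ± 0.14, adjusted p = 2.8e-04). The changes in the lines did not differ detectably (H9 minus HEK293T -0.07, 95% interval -0.39 to 0.24, adjusted p = 0.71).

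IER2, a nuclear protein of the immediate early response, also fell in both lines. It stood at 127.5 and 131.4 CPM with shRNA and at 186.4 and 190.0 CPM in the controls of H9 (log2 fold change -0.54 ± 0.040, adjusted p = 3.5e-14). HEK293T had IER2 at 332.2 and 320.6 CPM with siRNA and at 395.3 and 361.6 CPM in the controls (-0.21 ± 0.036, adjusted p = 1.6e-05). The groups did not overlap in either line, and the changes differed by -0.33 ± 0.053 (adjusted p = 2.3e-06) as measured. After removal of the trend the H9 value was -0.12, the HEK293T value -0.16 and their difference 0.04 (adjusted p = 0.60). An exon of IER2 overlaps AC011446.2 in the annotation, with the same limit as for JUNB.

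DUSP1, the phosphatase that switches off JNK and p38, followed JUN in neither line. It stood at 10.01 and 11.5 CPM with shRNA and at 13.9 and 16.2 CPM in the controls of H9, and fell by 0.49 ± 0.089 on the log2 scale (adjusted p = 9.3e-06), a call lost after removal of the trend (-0.20, adjusted p = 0.054). HEK293T had DUSP1 at 170.8 and 165.8 CPM with siRNA and at 164.6 and 166.1 CPM in the controls, which overlap (log2 fold change 0.03, 95% interval -0.06 to 0.11, adjusted p = 0.70).

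**Figure D2:**
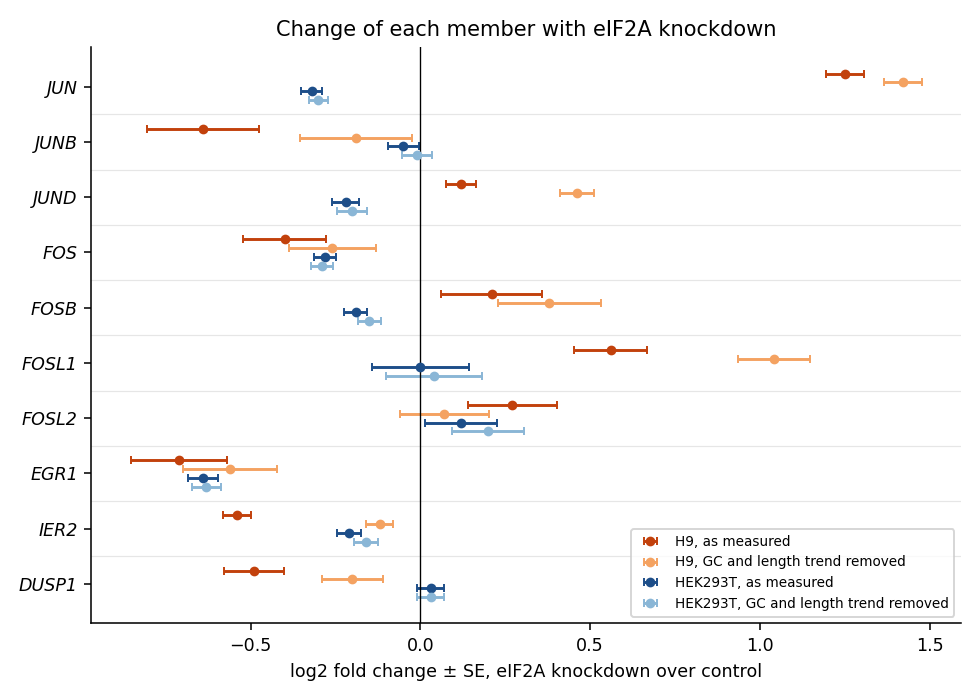
Log2 fold change of each member, eIF2A knockdown over control, with its SE, in H9 and HEK293T, as measured and with the trend on GC content and length removed. In H9 the value of JUN is 1.25 as measured and 1.42 with the trend removed, FOSL1 and JUND move up with the removal, and EGR1 stays below 0 in all 4 estimates.

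The difference between the lines, H9 minus HEK293T, was called for 6 of the 9 members other than JUN, where 58.1% of all genes tested were called, 31.1% positive and 27.0% negative. None of the 9 was called with a difference of at least 2-fold, against 16.1% of all genes. The difference was positive for JUND (0.34 ± 0.058), FOSB (0.40 ± 0.15) and FOSL1 (0.56 ± 0.18), and negative for JUNB (-0.59 ± 0.17), IER2 and DUSP1 (-0.51 ± 0.098). FOS (-0.12, 95% interval -0.38 to 0.13), FOSL2 (0.15, -0.20 to 0.49) and EGR1 were not called.

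In H9 the change of a transcript followed its makeup. Over all genes tested the median log2 fold change was 0.85 for transcripts under 45% GC, -0.13 from 50 to 55%, -0.32 from 55 to 60%, -0.40 from 60 to 65% and -0.41 above that, whereas in HEK293T these medians lay between -0.09 and 0.03. All 10 members have GC-rich transcripts, from 52.6% in FOS to 69.7% in JUND. Thus JUN (56.7%), FOSL1, JUND and, without a call, FOSB (57.7%) were higher with knockdown where most transcripts of like GC content were lower. By GC content alone the same held for FOSL2 (53.3%), also without a call. With this trend on GC content and transcript length removed, JUN stood at 1.42 ± 0.056 in H9, and 3 of the 9 other members were called higher, namely FOSL1 (1.04 ± 0.11, adjusted p = 2e-10), JUND (0.46 ± 0.050, adjusted p = 7.1e-09) and FOSB (0.38 ± 0.15, adjusted p = 0.036). EGR1 (-0.56 ± 0.14, adjusted p = 0.0023) and IER2 (-0.12 ± 0.039, adjusted p = 0.0084) were still lower, where 49.8% of all genes were called. JUNB (-0.19, adjusted p = 0.35), FOS (-0.26, adjusted p = 0.10) and DUSP1 (-0.20, adjusted p = 0.054) lost their calls. FOSL2, the longest of the member transcripts at 6708 bases, stood at 0.27 as measured and at 0.07 with the trend removed (adjusted p = 0.69). With length taken in, its value thus did not go against the trend. In HEK293T the same 5 of the 9 members were called lower with the trend removed as without, where 27.4% of all genes were called, from -0.15 (FOSB) to -0.63 (EGR1), so that with the trend removed JUND and FOSB both shared the directions of JUN in the 2 lines. The difference between the lines was called for 4 of the 9 members in that fit, where 42.3% of all genes were called.

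**Figure D3:**
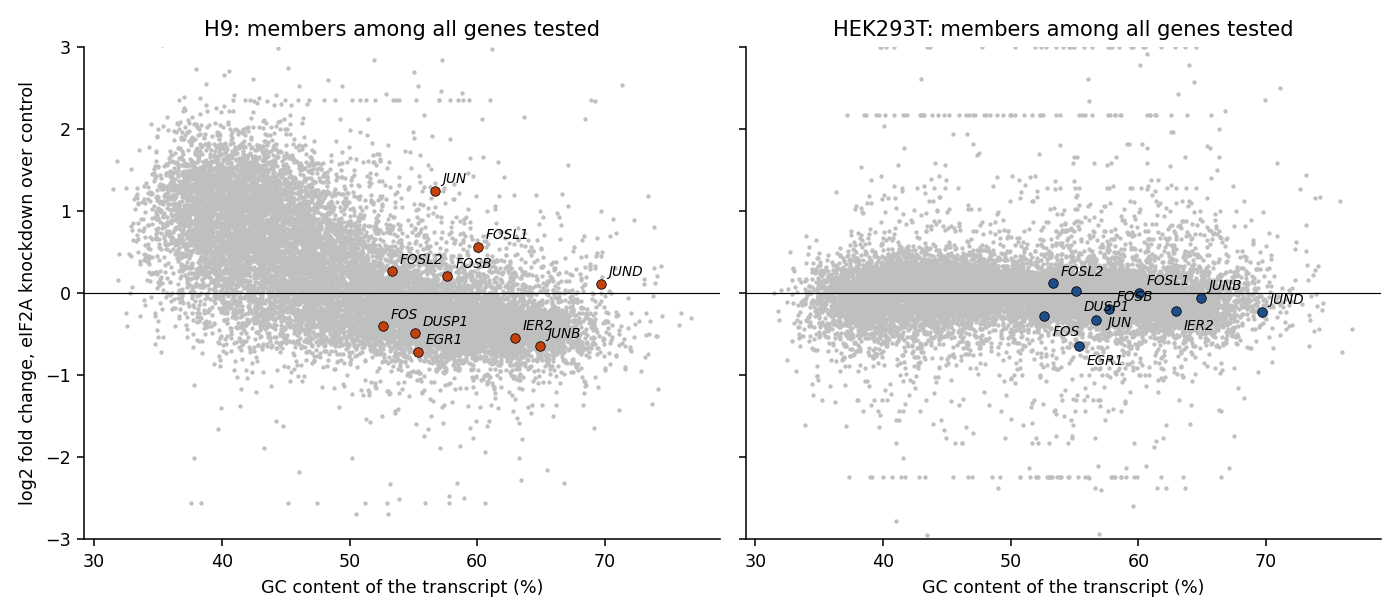
Log2 fold change, eIF2A knockdown over control, against the GC content of the transcript in H9 (left) and HEK293T (right). Grey points are all genes tested with a GC value, coloured points are the 10 members, and 70 genes in H9 and 106 in HEK293T lie beyond the axis limit of 3. In H9 the grey cloud falls with GC content, and JUN and FOSL1 lie in its upper part at their GC content.

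Other measures also moved with the groups. Reads outside all counted features were 20.84 and 20.63% with shRNA and 18.84 and 18.39% in the controls of H9, and 14.98 and 14.95% with siRNA and 15.59 and 17.68% in the controls of HEK293T. Histone transcripts, a list kept to watch RNA quality, summed to 1160 and 1180 CPM with shRNA and 1460 CPM in each control of H9, with 8 of 9 called lower. In HEK293T they summed to 1540 and 1570 CPM with siRNA and 1260 and 1310 CPM in the controls. Among markers of other cell types in H9, the 12 mesoderm and endoderm markers summed to 77.4 and 72.7 CPM with shRNA and 39.7 and 41.3 CPM in the controls. Of this sum KDR held 68.6 and 64.4 CPM with shRNA and 29 CPM in each control, while TBXT, EOMES, GATA4, GATA6 and SOX17 were under 0.4 CPM and HAND1 was at 0 in every H9 library. The 10 fibroblast markers summed to 887 and 899 CPM with shRNA and 1010 and 1020 CPM in the controls, with DCN and LUM under 0.2 CPM. THY1 made up most of that sum, at 592 and 594 CPM with shRNA and 788 and 794 CPM in the controls, and of the 7 tested 4 were called higher and 1 lower, with COL1A1 at 118 and 124 CPM with shRNA and 88.7 and 87.7 CPM in the controls. The 10 neural markers summed to 704 and 693 CPM with shRNA and 631 and 651 CPM in the controls, and of the 9 tested 4 were called higher and 2 lower. Among them NES stood at 458 and 446 CPM with shRNA and 220 and 223 CPM in the controls, and TUBB3 at 164 and 165 CPM with shRNA and 344 and 360 CPM in the controls. PAX6, NEUROG1 and NEUROG2 were under 0.4 CPM in every H9 library. The 10 trophoblast markers summed to 20.8 and 21.8 CPM with shRNA and 32.4 and 33.6 CPM in the controls. Most of this sum was KRT7, at 16.7 and 16.0 CPM with shRNA and 25.6 and 26.1 CPM in the controls. CDX2, ELF5 and HAND1 were at 0, and GATA3, TFAP2A and TP63 under 0.2 CPM, in every H9 library. A list of 12 arsenite response genes summed to 435 and 429 CPM with shRNA and 450 and 449 CPM in the controls of H9, and to 913 and 901 CPM with siRNA and 922 and 932 CPM in the controls of HEK293T. Its members went both ways: of 11 tested, 3 were called higher and 3 lower in H9, and 4 higher and 4 lower in HEK293T. The chaperone gene HSPH1 stood at 39.0 and 39.5 CPM with shRNA and 16.1 and 15.4 CPM in the controls of H9, and DNAJB1 at 406 and 398 CPM with siRNA and 504 and 517 CPM in the controls of HEK293T. Beside these counts, 37.0% of all genes tested were called higher and 34.3% lower in H9, and 14.1% higher and 14.7% lower in HEK293T. The markers given singly were chosen after their values were seen. The part of these differences in the values of the members was not tested.

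The makeup of AP-1 transcripts was compared per length, as CPM per kilobase of transcript. The 7 JUN and FOS family transcripts summed to 79.7 and 86.3 CPM per kilobase with shRNA and 69.0 and 71.3 in the controls of H9, and to 672 and 671 with siRNA and 804 and 806 in the controls of HEK293T. In H9 JUND made up most of the sum, at 69.3 and 70.8% with shRNA and 76.1 and 76.5% in the controls. The share of JUN was 14.8 and 14.2% with shRNA and 7.14 and 7.22% in the controls, and that of FOSL1 was 9.36 and 8.39% against 7.04 and 7.13%. FOS held 2.43 and 2.48% with shRNA and 4.19 and 3.46% in the controls. In HEK293T JUN and FOS led, with JUN at 37.3 and 37.1% with siRNA and 38.5 and 39.0% in the controls and FOS at 30.0 and 30.5% against 31.3 and 30.0%. The JUN family as a whole held 85.7 and 86.8% with shRNA and 86.5 and 86.8% in the controls of H9, against 56.3 and 56.0% with siRNA and 56.3 and 56.8% in the controls of HEK293T. Shares of transcripts say nothing of the proteins.

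**Figure D4:**
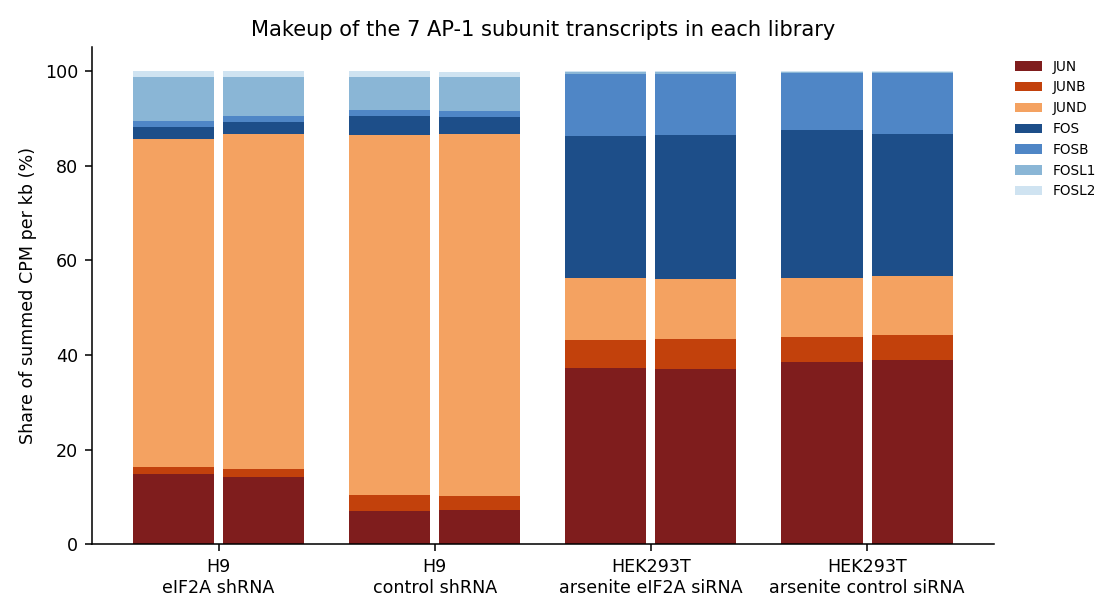
Share of each AP-1 subunit in the summed CPM per kilobase of the 7 JUN and FOS family transcripts, in each of the 8 libraries, knockdown left of control in each line. JUND holds 69.3 to 76.5% in H9, and JUN and FOS together hold most of the sum in HEK293T.

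Ordered per length in the H9 controls, IER2 led (90.3 ± 1.2 CPM per kilobase, SD, n = 2), followed by JUND (53.6 ± 1.4), DUSP1 (7.47 ± 0.81), JUN (5.04 ± 0.16), FOSL1 (4.97 ± 0.16), EGR1 (2.96 ± 0.021), FOS (2.68 ± 0.30), JUNB (2.20 ± 0.0043), FOSB (0.891 ± 0.090) and FOSL2 (0.813 ± 0.078). The neighbours JUN and FOSL1, EGR1 and FOS, and FOSB and FOSL2 lay within their spread of each other. In the HEK293T controls EGR1 led (687 ± 60), followed by JUN (312 ± 3.3), FOS (247 ± 7.4), IER2 (182 ± 11), JUND (101 ± 0.20), FOSB (99.3 ± 5.2), DUSP1 (81.9 ± 0.53), JUNB (42.5 ± 0.39), FOSL1 (2.46 ± 0.20) and FOSL2 (1.13 ± 0.058), and JUND and FOSB lay within their spread. With shRNA in H9, JUN passed DUSP1 to the third place, at 12 ± 0.34 against 5.34 ± 0.53 CPM per kilobase.

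The controls of the lines were compared with each other as a contrast that the choice of the list did not use, although it shares the control libraries with the knockdown comparisons. Line, arsenite and the kind of silencing RNA differ together here and cannot be told apart. All 10 members were called, 9 lower and 1 higher in H9 controls, where 83.5% of all genes tested were called, 42.3% higher and 41.2% lower. A call with at least a 2-fold difference was made for 8 members, against 42.6% of all genes, and all 10 were called after the GC and length trend was removed, against 84.9% of all genes. The 5 members with log2 differences beyond -4 were EGR1 (-7.86 ± 0.074, a level 232-fold lower in H9 controls, adjusted p = 3.3e-22), FOSB (-6.80 ± 0.066, 112-fold, adjusted p = 3.3e-41), FOS (-6.52 ± 0.057, 91.7-fold, adjusted p = 1.4e-42), JUN (-5.95 ± 0.044, 62.0-fold, adjusted p = 1.9e-44) and JUNB (-4.27 ± 0.081, 19.3-fold, adjusted p = 2.6e-32). DUSP1 was 11-fold lower (-3.46 ± 0.058, adjusted p = 5.5e-34). IER2 (-1.01 ± 0.037, adjusted p = 2.2e-23), JUND (-0.92 ± 0.042, adjusted p = 8.8e-21) and FOSL2 (-0.47 ± 0.12, adjusted p = 9.7e-04) differed less. FOSL1 alone of the 10 was higher in H9 controls (1.0 ± 0.13, adjusted p = 1.5e-08), and by 0.29 (adjusted p = 0.039) with the GC and length trend removed. The median log2 difference of the members was -3.86, against 0.00 over all genes.

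The 5 genes whose pattern over the 8 libraries was most like that of JUN, by the Euclidean distance of log2(CPM + 0.5) from the control mean of the line among 10057 genes averaging 5 CPM or more, were USP1, POLA1, RLIM, MTDH and HSP90AA1, at distances of 0.12 to 0.14. USP1, for example, stood at 23.7 and 25.5 CPM with shRNA and 9.98 and 10.5 CPM in the controls of H9, and at 24.2 and 21.8 CPM with siRNA and 28.8 and 27.8 CPM in the controls of HEK293T. Among the other members, FOSL1 was the nearest to JUN (distance 1.11, rank 2221 of 10056), then FOSB (1.5, rank 3342), FOSL2 (1.53, rank 3420) and JUND (1.58, rank 3597). EGR1 was the farthest (2.73, rank 9653). The distance uses values as measured, without the trend removed, and does not require the direction of JUN. FOSL2, nearer than JUND, was at 0.12 in HEK293T, where JUN was at -0.32 and JUND at -0.22. The transcripts of the 5 genes hold 40.9 to 45.2% GC, and with the trend removed their log2 fold changes in H9 were 0.31 to 0.70, against 1.42 for JUN. These likenesses are descriptions, since the values of JUN chose the list.

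Other immediate early genes went both ways. Of 29 tested, 14 were called higher and 5 lower in H9, with a median log2 fold change of 0.28 against 0.02 over all genes, and 7 higher and 4 lower in HEK293T (median 0.08 against 0.00), where DESeq2 called 6 in place of 11. Over all genes tested, 71.3% were called in H9, 37.0% higher and 34.3% lower, and 28.7% in HEK293T, 14.1% higher and 14.7% lower. BTG2, an antiproliferative p53 target, stood at 15.9 and 15.8 CPM with shRNA and at 5.78 and 5.33 CPM in the controls of H9 (log2 fold change 1.51 ± 0.10, adjusted p = 3.6e-15). EGR3, a relative of EGR1, had 7 and 3 counts with shRNA and 1 and 0 counts in the controls of H9, too few for a fold. In HEK293T the matricellular CCN1 stood at 142 and 138 CPM with siRNA and at 93.9 and 92.0 CPM in the controls (0.59 ± 0.040, adjusted p = 3e-13). Its relative CCN2 rose by 0.38 ± 0.064 there (adjusted p = 1.9e-05). CCN1 and CCN2 rose in the line in which JUN, FOS and EGR1 were lower.

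Among 19 other basic leucine zipper genes tested, 7 were called higher and 6 lower in H9, where 71.3% of all genes were called. In HEK293T 5 of them were called higher and 3 lower, where 28.7% of all genes were called. With the trend removed 2 were called higher and 7 lower in H9, where 49.8% of all genes were called in that fit. In HEK293T 5 in place of 8 were called without eIF2A siRNA replicate 1 or 2. MAFF, a small MAF protein without an activation domain, stood at 9.69 and 9.54 CPM with siRNA and at 14.6 and 15.1 CPM in the controls of HEK293T (-0.63 ± 0.10, adjusted p = 1.1e-05). In H9, CREB1, which binds the cyclic AMP response element, rose by 1.09 ± 0.089 and NFE2L2, the antioxidant regulator NRF2, by 0.93 ± 0.13 as measured, and with the trend removed they stood at 0.00 and 0.28 and were not called (adjusted p = 0.99 and 0.087).

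Upstream of AP-1, all 6 genes of serum response factor and its partners were called in H9, 3 higher and 3 lower, and 3 with the trend removed. Among all genes tested, 71.3% were called in H9 and 49.8% with the trend removed. MRTFB, a coactivator of serum response factor, rose by 1.31 ± 0.14 (0.39 with the trend removed, adjusted p = 0.017). ELK4, another partner, rose by 1.18 ± 0.14 as measured, against 0.01 with the trend removed (adjusted p = 0.96). In HEK293T, SRF itself stood at 166 and 172 CPM with siRNA and at 181 and 189 CPM in the controls (-0.13 ± 0.035, adjusted p = 0.0037, -0.07 with the trend removed, adjusted p = 0.14, and -0.11 without HEK293T eIF2A siRNA replicate 1, adjusted p = 0.098), and its partner ELK1 rose by 0.20 ± 0.036 (adjusted p = 6.9e-05).

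Of 28 MAP kinase pathway genes, 15 were called higher and 10 lower in H9, and 7 and 10 with the trend removed, and 4 were called higher and 4 lower in HEK293T, where 5 in place of 8 were called without control siRNA replicate 2. Among all genes tested, 71.3% were called in H9, 49.8% there with the trend removed, and 28.7% in HEK293T. The kinase kinase kinase MAP3K4 stood at 21.7 and 22.0 CPM with shRNA and at 9.33 and 9.23 CPM in the controls of H9 (1.23 ± 0.091, adjusted p = 3.6e-14, and 0.70 with the trend removed). RPS6KA3, the kinase RSK2, rose by 1.52 ± 0.15 there (0.40 with the trend removed, adjusted p = 0.028). In HEK293T, MAPK12, a p38 kinase, fell by 0.36 ± 0.044 (adjusted p = 9.3e-08) and MAPK14, the p38 alpha kinase, rose by 0.27 ± 0.061 (adjusted p = 7.9e-04).

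Of 9 other MAP kinase phosphatases, 3 were called higher and 4 lower in H9, and none higher and 1 lower in HEK293T, where several other fits called 2. Among all genes tested, 71.3% were called in H9 and 28.7% in HEK293T. DUSP8, which acts on JNK and p38, stood at 9.59 and 9.97 CPM with shRNA and at 3.45 and 5.08 CPM in the controls of H9 (1.20 ± 0.14, adjusted p = 8.9e-10). DUSP5, which acts on ERK, fell by 0.64 ± 0.064 there (adjusted p = 6.7e-11, and -0.40 with the trend removed). In HEK293T DUSP9 fell by 0.27 ± 0.044 (adjusted p = 8.7e-06).

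Of 10 genes for proteins that bind AU-rich transcripts or turn over JUN protein, 3 were called higher and 1 lower in H9 (4 and 3 with the trend removed), and 2 higher and none lower in HEK293T, where other fits called 0 or 1. Among all genes tested, 71.3% were called in H9, 49.8% there with the trend removed, and 28.7% in HEK293T. The ubiquitin ligases ITCH and COP1 rose in H9 by 1.13 ± 0.12 (0.44 with the trend removed) and 0.56 ± 0.063 (0.36 with the trend removed), with adjusted p = 5.1e-10 and 9.3e-10 as measured. HNRNPD, which promotes decay of such transcripts, rose in HEK293T by 0.16 ± 0.041 (adjusted p = 0.0037), and without HEK293T eIF2A siRNA replicate 1 it stood at 0.11 (adjusted p = 0.099). ELAVL1, which stabilizes them, was at 0.08 ± 0.032 there (adjusted p = 0.048), a call that was lost in several other fits, with an adjusted p of up to 0.16 without HEK293T eIF2A siRNA replicate 1 or 2.

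Of 20 AP-1 target genes 15 were tested, and 7 were called higher and 7 lower in H9 (6 and 3 with the trend removed), and 3 higher and none lower in HEK293T. Among all genes tested, 71.3% were called in H9, 49.8% there with the trend removed, and 28.7% in HEK293T. In H9 the cyclin CCND1 stood at 95.9 and 98.6 CPM with shRNA and at 36.2 and 35.1 CPM in the controls (1.45 ± 0.048, adjusted p = 3.5e-23). In HEK293T HMOX1, the heme oxygenase also driven by NRF2, stood at 196 CPM in both siRNA libraries and at 127 and 120 CPM in the controls (0.67 ± 0.037, adjusted p = 2.6e-15), and the intermediate filament gene VIM rose by 0.33 ± 0.030 (adjusted p = 2.8e-10).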

How the data were processed

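RNA from TRIzol extracts was made into TruSeq Stranded mRNA libraries, per the labels' protocols. Reads were handled with cutadapt and STAR 2.5.2b on hg19, per the submitters' processing notes. The authors deposited raw counts per RefSeq accession for each of the 8 libraries (19305 accessions and 5 special counters). Not given in the sources used here are the counting program, its strand setting and annotation. The special counters were left out of library sizes and tests: reads with no feature were 14.95 to 20.84% and reads not uniquely placed 4.11 to 4.54%. Accessions were named from a RefSeq table (18888) or GENCODE v29 (223), and 194 had no name.

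The counts were scaled with TMM factors and filtered with filterByExpr, and all 14565 genes left were fitted with edgeR 4.0.16 (R 4.3.3, robust quasi-likelihood F test), with 4 group means over the 8 libraries and 4 residual degrees of freedom. P-values were adjusted over all genes by the Benjamini-Hochberg method, and genes under 0.05 were called. The SE is the log2 fold change divided by the square root of F, and 95% intervals use the t quantile of the fit. The GC and length trend was removed with offsets from natural splines (5 degrees of freedom each) on the GC content and length of GENCODE v29 transcripts, which 98.76% of accessions have. Alternatives were DESeq2 1.42.0, limma-voom (limma 3.58.1), other scalings, filters and thresholds, a block on the set number, only the libraries compared, and leaving out each library. Shares of all genes called are given for the main fit and the fit with the trend removed, and not for the other refits. The fit was tested on simulated data. The genes named beside the members were the 5 most like JUN and, from each pathway list and line, at most 2 called genes, averaging 5 CPM or more, with the largest change. Some genes that this rule names are not reported here. The members and all lists were chosen with earlier results of these data known. Ribosome profiling was not analysed here.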

Additional observations from a re-analysis of the deposited data

Results flagged for a closer look

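The change with eIF2A knockdown differed between the lines for 6 of the 9 members other than JUN in edgeR's test of the difference itself, H9 minus HEK293T on the log2 scale. For JUN, which was chosen for its opposite changes and gets no test, it was 1.58. It was 0.34 for JUND (adjusted p = 5.6e-06), 0.40 for FOSB (adjusted p = 0.024) and 0.56 for FOSL1 (adjusted p = 0.0073). It was -0.59 for JUNB (adjusted p = 0.0034), -0.33 for IER2 (adjusted p = 2.3e-06) and -0.51 for DUSP1 (adjusted p = 2.6e-05). Among all genes tested 58.1% were called in the same test. Line, arsenite and the kind of silencing RNA differ together and cannot be told apart.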

How the results depend on the processing

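Of 710 refitted member values, 670 kept their side of the threshold without a turn of sign. With the sign kept, 21 lost the call and 4 gained it, and 15 changed sign. Among the 15, JUND in H9 and IER2 in the difference lost their calls as well. A value of 0.00 counts as having no sign, so the 670 take in FOSL1 in HEK293T, at 0.00, which lay between -0.15 and 0.14. In the counts of members called that follow, JUN is included. With a change of at least 2-fold also required, 1 member was called in H9 (of 8), 0 in HEK293T (of 6) and 1 in the difference (of 7). That 1 member is JUN, and 16.8, 0.673 and 16.1% of all genes were so called. JUND in H9 was -0.04 with DESeq2's size factors and with DESeq2, where those factors moved the median of all genes to -0.13, against 0.02. In the difference of the lines, FOS was 0.03 with the GC and length trend removed, FOSL2 -0.13 with the trend removed and -0.01 with DESeq2's size factors or DESeq2, EGR1 0.07 with the trend removed and 0.01 with upper-quartile scaling, and IER2 0.04 with the trend removed. Leaving out each library gave -0.24 to 0.08 for EGR1. The cause was not tested. The difference of JUNB lost its call without H9 eIF2A shRNA replicate 1 (-0.45, adjusted p = 0.064) and with the trend removed (-0.18, adjusted p = 0.43). That of FOSB lost it with DESeq2 (0.24, adjusted p = 0.24), limma-voom (0.40, adjusted p = 0.088), and without H9 control shRNA replicate 1 (0.29, adjusted p = 0.20), H9 eIF2A shRNA replicate 1 (0.37, adjusted p = 0.10) or HEK293T control siRNA replicate 2 (0.34, adjusted p = 0.060). That of FOSL1 lost it with DESeq2 (0.40, adjusted p = 0.17) and without HEK293T control siRNA replicate 2 (0.47, adjusted p = 0.070) or HEK293T eIF2A siRNA replicate 2 (0.42, adjusted p = 0.066). FOSL2 in H9 gained a call with upper-quartile scaling (0.34, adjusted p = 0.021) and a filter at 5 CPM (0.32, adjusted p = 0.026).

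Libraries of the same set number share only a number: their deviations correlated at 0.02 in H9 and -0.05 in HEK293T over 10057 genes. With the replicate block 8 members, JUN included, were called in H9, 6 in HEK293T, 7 in the difference and 10 between the controls, as without it. Without the block, 71.3% of all genes were called in H9, 28.7% in HEK293T, 58.1% in the difference and 83.5% between the controls. With the replicate block and the trend removed, FOS was 0.03, FOSL2 -0.12, EGR1 0.07 and IER2 0.04 in the difference. In H9 the low counts of JUNB, FOS, FOSB and EGR1 limit the precision.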
